A study of Mus musculus with 10 samples.

Results

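The libraries described here are the 2 of primary murine keratinocytes cultured alone and the 2 of CD8+ T cells activated for 1 d by anti-CD3 and anti-CD28 antibodies, 4 of the 10 libraries of the series, and all genes of the deposited tables were compared between them. The libraries were chosen by their labels alone. The keratinocytes were prepared from mouse skin with dispase and trypsin and kept in serum-free keratinocyte medium of low calcium. The methods of the study name adult tails and newborn mice as sources, and its sequencing section does not say which was used. The T cells were taken from spleen with a CD8 microbead kit and activated in X-VIVO 15 medium. C57/B6 mice were used according to the methods of the study, and the labels name no engineered allele and no agent that both groups shared. The other libraries, from co-culture and from T cells in keratinocyte medium, served only for a repeat of the contrast. The labels do not say whether the libraries of a group came from separate animals or cultures, and the design text speaks of 2 parallel experiments. The p-values measure the spread between these libraries, and how far that is a spread between animals is not known. The Y-linked gene Eif2s3y differed within each group, as given below, so the libraries of a group were not repeats of the same RNA. The labels do not give the sex of the animals. Cell type, tissue of origin, medium and activation all changed together between the groups and cannot be told apart.

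Keratinocytes of the basal layer of the epidermis are held to each other by desmosomes and adherens junctions and to the basement membrane by hemidesmosomes. Desmosomes and hemidesmosomes are anchored to keratin filaments and adherens junctions to actin. When they leave the basal layer they build the cornified envelope from small proline-rich proteins, involucrin and loricrin. CD8+ T cells carry an antigen receptor that signals through the CD3 chains and the kinases Lck and Zap70. After activation they divide rapidly, secrete interferon gamma and chemokines, and load granules with granzymes and perforin.

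Of the 4 genes that mark the cell types, 3 passed the test in the direction of their label. Expression is given as RPKM, reads per kilobase of exon scaled to library size, in the order replicate 1 and replicate 2. Krt14, the type I keratin of basal keratinocytes (chr11:100203162-100207548, minus strand, GRCm38), stood at 7239.8 and 8719 RPKM in keratinocytes and at 0.350 and 0.613 RPKM in T cells, where 10 and 15 reads were counted. For Krt5, its type II partner (chr15:101707070-101712898, minus strand), the levels were 3549.9 and 2837 RPKM in keratinocytes and 0.135 and 0.253 RPKM in T cells. Both keratins were abundant in keratinocytes and near the limit of detection in T cells. Cd8a, a chain of the CD8 coreceptor (chr6:71373427-71379173, plus strand), was found at 0.118 and 0.600 RPKM in keratinocytes and 176 and 110.0 RPKM in T cells. The log2 fold changes, keratinocytes minus T cells, were 14.10 ± 0.82 (SE) for Krt14, 14.07 ± 0.76 for Krt5 and -8.55 ± 0.89 for Cd8a, with adjusted p-values of 0.000508, 0.000508 and 0.00131 in edgeR's quasi-likelihood test. Cd3e, a chain of the receptor complex of all T cells (chr9:44998740-45009627, minus strand), did not separate the groups in this test. Its level was 14.4 and 56.8 RPKM in keratinocytes and 112 and 133 RPKM in T cells, so that the groups did not overlap (-1.68 ± 0.66, edgeR adjusted p = 0.0855). Without keratinocyte replicate 2 it was called, with a log2 fold change of -3.00 (edgeR adjusted p = 0.00192). These and further members are shown in the plot of levels by library.

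**Figure D1:**
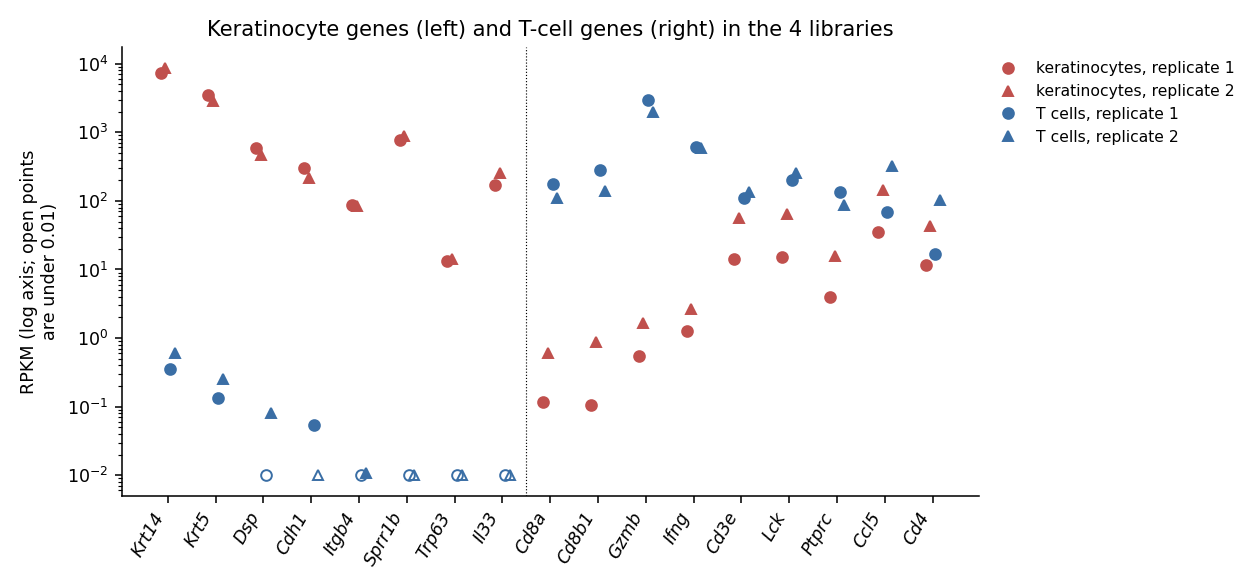
RPKM on a log axis of 8 keratinocyte genes (left) and 9 T-cell genes (right) in each library, keratinocytes in red and T cells in blue, replicate 1 as circles and replicate 2 as triangles, with open points for values under 0.01 drawn at 0.01. Keratinocyte genes lie near or at 0 in T cells, whereas T-cell genes range in the keratinocyte libraries from 0.118 and 0.600 RPKM for Cd8a to 35.1 and 145 RPKM for Ccl5.

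The libraries held 13161039 to 18019609 exon reads. At this depth 3 reads, which counting error alone separates from 0, equal 0.158 to 0.208 RPKM if the exons of a gene span 1 kb. Of 25814 genes, 12666 passed edgeR's filter on low counts. Of these, 3244 were higher in keratinocytes (25.6%) and 1942 were higher in T cells (15.3%) at an adjusted p under 0.05, together 40.9%, while 7480 were not called. Without keratinocyte replicate 1 the number higher in T cells was 905 and without keratinocyte replicate 2 it was 1261. Both keratinocyte libraries lay above both T-cell libraries in 39.6% of the genes tested, and the reverse held in 35.9%. The median log2 fold change of all genes tested was 0.07. A log2 fold change beyond 3 was fitted for 2048 of the genes higher in keratinocytes and for 439 of those higher in T cells, and beyond 6 for 1269 and 87 genes, respectively. Of the genes higher in keratinocytes, 804 had no read in both T-cell libraries, whereas 55 of those higher in T cells had no read in both keratinocyte libraries. With 5 RPKM as the limit of expression, 7072 genes were expressed in keratinocytes and 6312 in T cells, and 5092 of them in both. An exact permutation test of a single gene with 2 libraries against 2 cannot go below p = 0.333, so all calls rest on the spread estimated across genes.

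**Figure D2:**
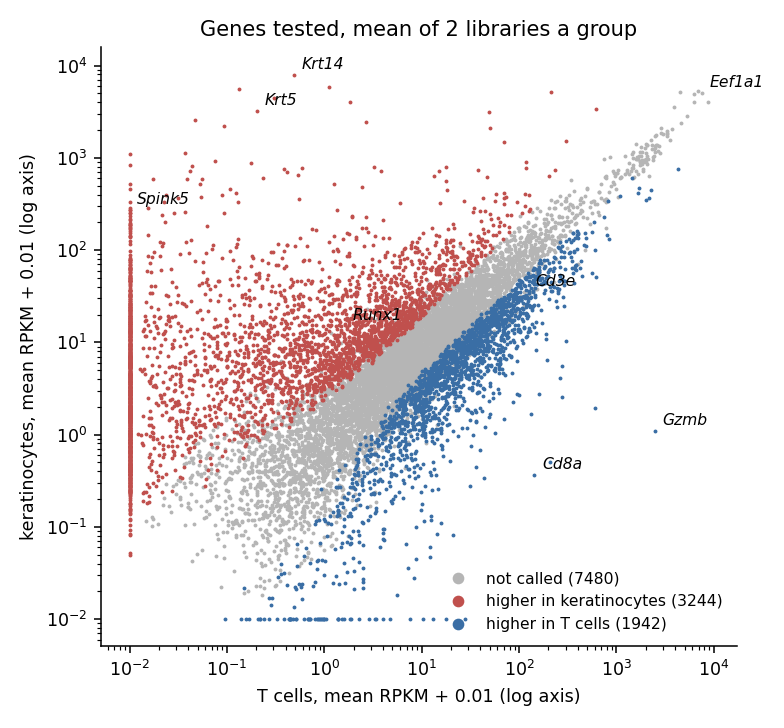
Mean RPKM of the 2 libraries of each group, plus 0.01, for the 12666 genes tested, on log axes with T cells on the x axis and keratinocytes on the y axis. The 3244 genes higher in keratinocytes (red) spread to the left edge, where 804 genes without a read in T cells lie, and the 1942 genes higher in T cells (blue) run mostly parallel to the 7480 genes not called (gray).

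Among genes at a mean of 50 RPKM or more in keratinocytes, the 10 with the largest fitted difference were Krt6b, Spink5, Dsc3, Dsg3, Sprr1b, Krt80, Il33, Lmo7, Pkp1 and H60c. All are genes of epithelial structure or of epithelial signals: keratins (Krt6b and Krt80), desmosomal cadherins (Dsc3 and Dsg3), a desmosomal plaque protein (Pkp1), a cornified envelope precursor (Sprr1b), a protease inhibitor of the epidermis (Spink5), an alarmin (Il33), a junction-associated protein (Lmo7) and a ligand of the activating receptor NKG2D (H60c). Of these 10 genes, 9 had no read in T cells, and for them only a lower bound of the fold can be given, set against 3 reads in a library. Dsg3, the pemphigus antigen, was found at 195 and 178 RPKM in keratinocytes, at least 3677-fold higher than in T cells. Il33 stood at 171 and 256 RPKM, at least 2956-fold higher, and Spink5 at 257 and 283 RPKM, at least 6199-fold higher. Krt6b had 709 and 1463 RPKM, but shares near-identical sequence with Krt6a, and 53.5% of its reads mapped uniquely. Pkp1, at 653 and 538 RPKM in keratinocytes, had 1 read in the T-cell libraries. The spread between replicates was small for most of these genes, whereas Lmo7 differed between 123 and 34.2 RPKM.

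The corresponding 10 genes of T cells were Gzmb, Cd8b1, Cd8a, Ifng, Xcl1, Irf8, Pim2, Tnfrsf9, Irf4 and Ccl3. They comprise the CD8 coreceptor, effector products (granzyme B, interferon gamma and the chemokines Xcl1 and Ccl3), a survival kinase (Pim2), a costimulatory receptor (Tnfrsf9) and transcription factors induced by antigen receptor signals (Irf4 and Irf8). Gzmb, the gene of a granule protease that kills target cells, stood at 2966 and 1968 RPKM in T cells and 0.550 and 1.64 RPKM in keratinocytes, a log2 fold change of -11.05 ± 0.86 (edgeR adjusted p = 0.000605). The levels of Ifng were 613 and 589 RPKM in T cells and 1.26 and 2.63 RPKM in keratinocytes (-8.18 ± 0.58, edgeR adjusted p = 0.000520). For Ccl3 they were 291 and 260.2 RPKM in T cells and 0.757 and 10.2 RPKM in keratinocytes, where the libraries were far apart (-5.55 ± 1.13, edgeR adjusted p = 0.0122). Of the 10 genes, each had reads in both keratinocyte libraries. For Irf8 and Tnfrsf9 only 18.6% and 24.7% of the reads mapped uniquely, so that these levels are uncertain.

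Promoter sequences (RefSeq, GRCm38.p6, from 250 bases before to 50 bases after a transcription start) are shown for 3 genes of these lists in which searched motifs were found: Sprr1b (chr3:92438730-92439029, minus strand), Gzmb (chr14:56262285-56262584, minus strand) and Ifng (chr10:118440796-118441095, plus strand). They stand for a gene of the epidermal barrier and for the leading effector genes of the T cells. Sequences run 5′ to 3′ in the direction of transcription. Capitals mark a TATA box (TATAAA), the AP-1 motif TGANTCA and the RUNX motif TGTGGTT, searched on both strands.
Sprr1b: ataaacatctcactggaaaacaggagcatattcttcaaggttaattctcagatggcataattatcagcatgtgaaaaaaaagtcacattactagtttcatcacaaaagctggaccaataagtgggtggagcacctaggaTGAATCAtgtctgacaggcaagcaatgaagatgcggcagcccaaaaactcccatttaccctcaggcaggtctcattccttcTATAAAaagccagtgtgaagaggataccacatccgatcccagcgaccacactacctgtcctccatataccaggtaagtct
Gzmb: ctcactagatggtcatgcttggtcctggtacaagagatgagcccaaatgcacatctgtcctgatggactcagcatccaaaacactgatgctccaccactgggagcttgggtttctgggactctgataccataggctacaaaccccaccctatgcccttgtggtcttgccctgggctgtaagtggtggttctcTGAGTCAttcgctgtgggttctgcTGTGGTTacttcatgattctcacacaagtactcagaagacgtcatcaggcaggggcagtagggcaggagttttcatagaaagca
Ifng: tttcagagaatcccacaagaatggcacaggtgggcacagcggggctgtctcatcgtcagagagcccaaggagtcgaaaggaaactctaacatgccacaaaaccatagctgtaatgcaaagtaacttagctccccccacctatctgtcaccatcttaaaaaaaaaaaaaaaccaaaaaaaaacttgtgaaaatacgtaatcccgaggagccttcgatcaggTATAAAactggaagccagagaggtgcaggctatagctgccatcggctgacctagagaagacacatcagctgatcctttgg
In Sprr1b the TATA box begins at base -30 and the AP-1 match at base -111 relative to the start, in Gzmb the AP-1 match begins at base -58 and the RUNX match at base -34, and in Ifng the TATA box begins at base -30. Of all 32851 promoter windows of this length, 13.6% held the TATA box, 7.81% the AP-1 motif and 5.27% the RUNX motif on either strand. These matches describe letters, not binding. A comparison of motif shares between the genes higher in either cell type is void, since 9835 of the 12666 genes tested (77.6%) had a window, fewer than the 80% required.

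A set of 7 lists of structural and regulatory genes of keratinocytes held 103 genes, of which 100 were tested and 99 were higher in keratinocytes, where 25.6% of all genes tested were. None was higher in T cells. The 33 members without a T-cell read were tested only because of their level in keratinocytes, so the count is a description and no measure of how far the list stands apart. With 10 reads required in every library 25 members were tested, and all 25 were higher in keratinocytes. Over all 100 members tested in the main fit the median fitted log2 fold change was 11.30. It was 8.76 with genes without a T-cell read at their lower bound, where that of all genes tested was 0.07. In T cells 82 of the 100 were under 1% of their keratinocyte level, and 62 were under 0.1%.

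Of 15 keratins, 13 were tested and 12 were higher in keratinocytes. Besides Krt14 and Krt5, the keratins of activated and hyperproliferative epidermis were abundant, with Krt6a at 6418 and 4678 RPKM, Krt17 at 5327 and 3525 RPKM and Krt16 at 1867 and 2521 RPKM. In T cells none of these 3 exceeded 0.358 RPKM. The keratins of suprabasal cells were low: Krt1 had 4.70 and 7.10 RPKM in keratinocytes and no read in T cells, at least 69.6-fold higher. Krt10, its partner, was measured at 1.52 and 0.778 RPKM in keratinocytes and 1.21 and 0 RPKM in T cells and was the 1 keratin tested that was not called (edgeR adjusted p = 0.636), except without T-cell replicate 1. The keratins of simple epithelia differed between the keratinocyte libraries, with Krt8 at 167 and 40.8 RPKM, Krt18 at 96.1 and 14.8 RPKM and Krt7 at 105 and 23.8 RPKM, replicate 1 being the higher in each. Krt15 and Krt19 stayed under the filter, with at most 1.08 RPKM in a library. Of the reads of Krt6a, 52.0% mapped uniquely, and for Krt14 and Krt16 these were 88.1% and 88.4%.

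All 15 desmosomal genes tested were higher in keratinocytes. Perp, a membrane protein of desmosomes, was the most abundant with 1980.1 and 2893 RPKM. Next came plaque proteins, with Jup at 824 and 715 RPKM, Pkp1 at 653 and 538 RPKM and Dsp, which links the plaque to keratin filaments, at 581 and 459 RPKM, whereas the T-cell libraries had 0.351 and 0.798 RPKM of Jup and 0.00620 and 0.0796 RPKM of Dsp. Of the other plakophilins, Pkp3 was found at 113 and 90.5 RPKM in keratinocytes and 4.42 and 18.1 RPKM in T cells (3.24 ± 0.70, edgeR adjusted p = 0.0147). Of the desmogleins, Dsg3 of the basal layer was higher per length of exon than Dsg1a and Dsg1b of the upper layers, which had 8.32 and 30.8 and 33.4 and 41.1 RPKM.

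All 11 genes of hemidesmosomes and laminin 332 were higher in keratinocytes. Itgb4, the integrin chain found in hemidesmosomes, had 88.1 and 83.6 RPKM in keratinocytes and 1 read in T cells. Its partner Itga6, which leukocytes also carry, had 43.2 and 36.3 RPKM in keratinocytes and 5.01 and 2.74 RPKM in T cells, a log2 fold change of 3.44 ± 0.42 (edgeR adjusted p = 0.00214). Both chains of this integrin were thus higher in keratinocytes, and the difference between their fold changes was not tested. Col17a1, a collagen of hemidesmosomes, stood at 122 and 171 RPKM in keratinocytes and had 1 and 0 reads in T cells. Plec, a linker of filaments in many cell types, had the smallest difference of the group with 14.6 and 15.9 RPKM in keratinocytes and 1.85 and 1.71 RPKM in T cells (3.18 ± 0.33).

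The 14 genes of adherens and tight junctions were all higher in keratinocytes as well. Cdh1, E-cadherin, was found at 299.8 and 218 RPKM in keratinocytes and with 4 and 0 reads in T cells. Cldn1, the claudin of the epidermal barrier, had 620.0 and 554 RPKM in keratinocytes and 2 and 1 reads in T cells. Catenins bind cadherins but act elsewhere too. Ctnnb1, of whose reads 40.9% mapped uniquely, was measured at 139 and 88.1 RPKM in keratinocytes and 47.5 and 36.0 RPKM in T cells (1.52 ± 0.38, edgeR adjusted p = 0.0221; not called without keratinocyte replicate 1 or without T-cell replicate 2), and Ctnna1 at 164 and 117 RPKM and 18.0 and 11.9 RPKM (3.31 ± 0.40, edgeR adjusted p = 0.00211).

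Genes of the cornified envelope were expressed in these keratinocytes, which were kept in low calcium. Sprr1a was the most abundant with 2910.3 and 2194 RPKM, followed by Dmkn with 1120.2 and 1141 RPKM, Sbsn with 954 and 788 RPKM and Sprr1b with 784 and 895 RPKM. Other envelope genes were far lower, with Ivl, involucrin, at 15.4 and 21.1 RPKM and Lor, loricrin, at 5.77 and 3.60 RPKM. Ivl was at least 169-fold and Lor at least 40.0-fold higher than in T cells, where neither had a read. All 15 members of this list were higher in keratinocytes. The list also held members with a wide spread between the keratinocyte libraries, Lgals7 with 111 and 856 RPKM and Krtdap with 54.5 and 329 RPKM, and in both replicate 2 was the higher.

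Each of the 20 epithelial transcription factors was higher in keratinocytes, and 10 of them had no read in T cells. Trp63, the master regulator of stratified epithelia, stood at 13.4 and 14.1 RPKM with 1 read in T cells. The most abundant members were Hes1 with 202 and 133 RPKM, Zfp750 with 131 and 113 RPKM, of whose reads 3.12% mapped uniquely, and Grhl1 with 118 and 117 RPKM. Sox9 (73.5 and 51.7 RPKM) and Klf5 (59.1 and 35.9 RPKM) were at least 1243-fold and 1185-fold higher than in T cells.

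The 12 growth factor receptors and ligands tested were all higher in keratinocytes. The receptor genes Egfr (17.5 and 13.3 RPKM) and Erbb2 (15.9 and 13.8 RPKM) were accompanied by the ligand genes Hbegf (45.4 and 23.1 RPKM), Tgfa (39.0 and 28.3 RPKM) and Ereg (13.5 and 9.28 RPKM). Tgfa and Ereg were at least 732-fold and 225-fold higher than in T cells. Igf1r, a receptor of many cell types, differed least with 11.6 and 6.49 RPKM in keratinocytes and 2.57 and 2.11 RPKM in T cells (2.02 ± 0.39, edgeR adjusted p = 0.00981). The shares of calls in all lists are shown in the plot of calls by gene list.

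**Figure D3:**
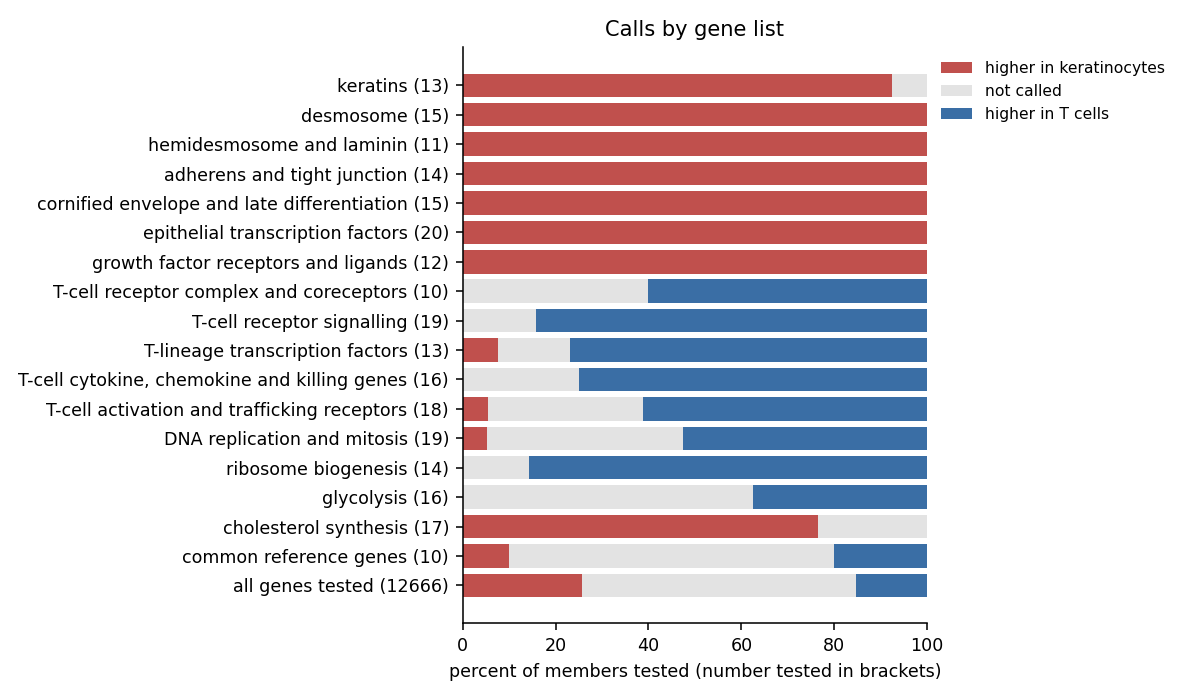
Percent of the members tested of each gene list, and of all genes tested, that were higher in keratinocytes (red), not called (gray) or higher in T cells (blue) in edgeR's test at an adjusted p under 0.05, with the number tested in brackets. Of the keratinocyte lists 99 of 100 members were higher in keratinocytes, and of the T-cell lists 55 of 76 were higher in T cells.

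Of 80 T-cell genes in 5 lists, 76 were tested, and 55 of these were higher in T cells, 2 were higher in keratinocytes and 19 were not called, where 15.3% of all genes tested were higher in T cells. The median log2 fold change was -2.67. Both T-cell libraries lay above both keratinocyte libraries in 67 of the 76 genes. All 76 genes had a read in at least 1 keratinocyte library, and their median level in keratinocytes was 14.8% of that in T cells.

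Of 10 genes of the receptor complex and the coreceptors that were tested, 6 were higher in T cells. Cd8b1, the beta chain of CD8, stood at 0.107 and 0.871 RPKM in keratinocytes and 277 and 141 RPKM in T cells, with a log2 fold change of -8.65 ± 1.00 (edgeR adjusted p = 0.00179). The level of Cd8a and Cd8b1 in keratinocytes was 0.251% and 0.234% of that in T cells. The CD3 chains had far higher shares, with 29.1% for Cd3e, 25.1% for Cd3d and 33.4% for Cd3g, and neither they nor Cd2, an adhesion receptor of T cells, passed the test. Without keratinocyte replicate 2 all 10 genes of this list were higher in T cells. Cd3g, for instance, was measured at 34.8 and 126 RPKM in keratinocytes and 138 and 344 RPKM in T cells (edgeR adjusted p = 0.151). Cd247, the zeta chain (-2.17 ± 0.68), Cd5 (-2.38 ± 0.65), Cd6 (-3.34 ± 0.75) and Cd28 (-2.43 ± 0.55) passed it, of which Cd247 did not without keratinocyte replicate 1 or T-cell replicate 2. In bulk RNA, fewer cells of a type and less RNA per cell cannot be told apart.

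Of 19 genes of antigen receptor signalling, 16 were higher in T cells and the T-cell libraries lay above the keratinocyte libraries in all 19. Lck, the kinase bound to the coreceptors, was found at 15.3 and 64.7 RPKM in keratinocytes and 204 and 255 RPKM in T cells (-2.42 ± 0.71, edgeR adjusted p = 0.0365). Its call was lost without keratinocyte replicate 1 (-1.71) or T-cell replicate 2 (-2.22). For Zap70, the kinase of the zeta chain, the levels were 6.41 and 21.5 RPKM and 95.3 and 101 RPKM (-2.72 ± 0.62, edgeR adjusted p = 0.0171). Themis, which acts in thymocyte selection, had the largest difference of this list (-4.65 ± 0.72). Txk, Rasgrp1 and Skap1 were not called, with edgeR adjusted p-values of 0.1004, 0.112 and 0.0563, but each was called without keratinocyte replicate 2. Malt1, part of a complex that activates NF-kappaB in many cell types, had 4.27 and 3.81 RPKM in keratinocytes and 19.2 and 21.7 RPKM in T cells, and was the 1 gene of this list at which keratinocyte replicate 2 was not the higher.

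Among the transcription factors of the T lineage, 10 of 13 were higher in T cells. The factors of effector CD8+ cells, Tbx21 (-4.09 ± 0.79) and Eomes (-4.65 ± 0.65), and Lef1 of naive T cells (-4.35 ± 0.74) were at 3.73 to 5.45% of the T-cell level in keratinocytes. Tcf7, Ikzf3 and Batf were not called without keratinocyte replicate 1 or T-cell replicate 2. Ets1 and Gata3 were not called with all libraries. Gata3, which directs both helper T cells and the epidermal barrier, was measured at 10.1 and 14.7 RPKM in keratinocytes and 6.83 and 16.8 RPKM in T cells (edgeR adjusted p = 0.844). The family of RUNX factors divided: Runx3, a factor of CD8+ T cells, was higher in T cells with 0.631 and 2.74 RPKM in keratinocytes and 14.5 and 15.7 RPKM in T cells (-3.07 ± 0.72, edgeR adjusted p = 0.0188), whereas Runx1 was higher in keratinocytes with 20.2 and 10.2 RPKM and 1.56 and 1.66 RPKM (3.31 ± 0.43, edgeR adjusted p = 0.00269).

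Cytokine, chemokine and killing genes included the largest differences, and 12 of 16 were higher in T cells. Besides Gzmb and Ifng these included Prf1, perforin (-5.79 ± 1.01), Xcl1 (-6.67 ± 0.57) and Lta (-5.50 ± 0.68). Il2 was low after 1 d of activation, with 2.18 and 1.82 RPKM in T cells and 1 read in keratinocytes, and was not called when either keratinocyte library was left out. Not called were Ccl5, Gzmk, Fasl and Tnf. Fasl, the death ligand, had 0.190 and 0.758 RPKM in keratinocytes and 2.92 and 3.37 RPKM in T cells (edgeR adjusted p = 0.0552) and was called by DESeq2 (adjusted p = 0.0182) and in 7 other alternatives. Ccl5, a chemokine of memory T cells, was abundant in both groups and differed within each, with 35.1 and 145 RPKM in keratinocytes and 68.0 and 323 RPKM in T cells (edgeR adjusted p = 0.399), and it was called without keratinocyte replicate 2 (-2.43). Tnf, which both cell types can make, was found at 8.004 and 1.25 RPKM in keratinocytes and 5.26 and 3.43 RPKM in T cells (edgeR adjusted p = 0.903).

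Of 18 activation and trafficking receptors, 11 were higher in T cells. The early activation genes Tnfrsf9 (-5.76 ± 0.71), Il2ra (-5.15 ± 0.81), Cd69 (-4.20 ± 0.62) and Ctla4 (-4.10 ± 0.66) and the lymph node homing receptor Ccr7 (-4.83 ± 0.74) were among them. Not called were Il7r, S1pr1, Cxcr3, Icos, Pdcd1 and Tigit. Il7r, the receptor for interleukin-7, had 5.80 and 21.0 RPKM in keratinocytes and 11.96 and 49.2 RPKM in T cells, and Icos, a costimulatory receptor, had 4.15 and 19.3 RPKM and 30.8 and 73.2 RPKM. For each of these 6 genes replicate 2 was the higher in both groups, and all but S1pr1 were called without keratinocyte replicate 2. Cd44, used as a marker of activated T cells and also an adhesion receptor of epidermis, was higher in keratinocytes, with 104 and 62.2 RPKM against 19.4 and 26.9 RPKM (1.91 ± 0.40, edgeR adjusted p = 0.0136).

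**Figure D4:**
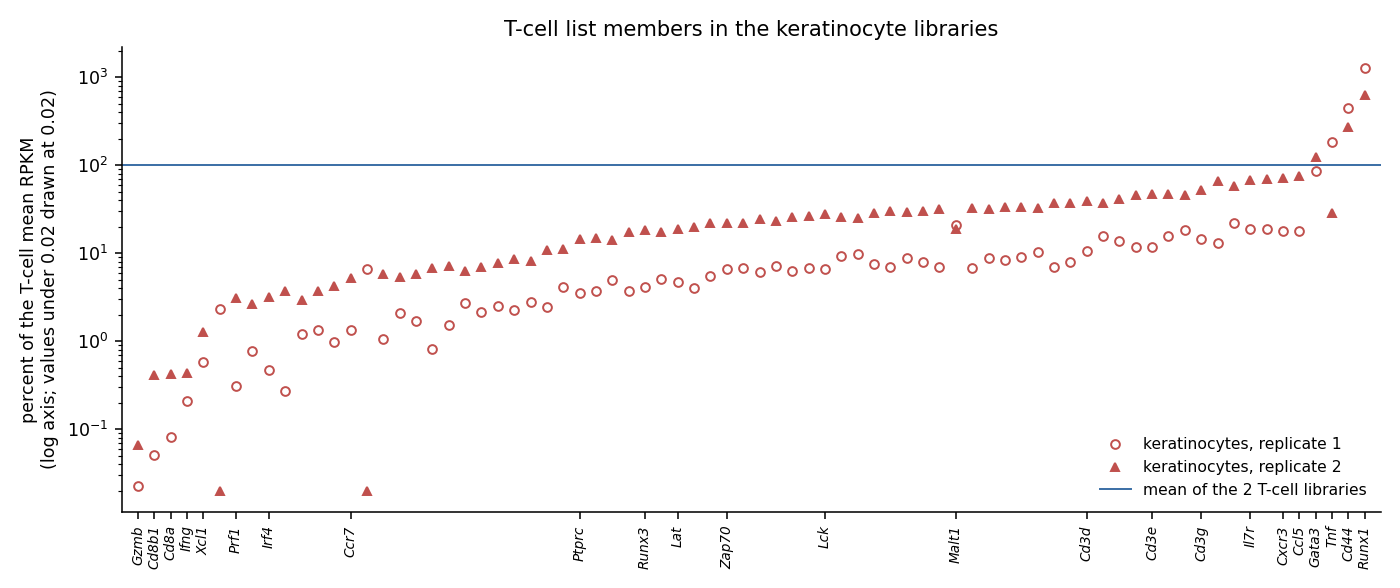
Level of the 76 tested members of the T-cell lists in keratinocyte replicate 1 (open circles) and replicate 2 (triangles), as percent of the mean RPKM of the 2 T-cell libraries (blue line) on a log axis, ordered by the mean of both, with some genes named on the x axis and values under 0.02 drawn at 0.02. Of the 76 genes, 30 were under 10% and 72 under 50% of the T-cell level, and replicate 2 was above replicate 1 in 70.

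The T-cell genes moved together between the keratinocyte libraries. In replicate 2 the level was above that of replicate 1 in 70 of the 76 genes, with a median ratio of 3.69, whereas this was so in 45.3% of all genes tested, with a median ratio of 0.954. Their level in keratinocytes relative to T cells varied widely: Gzmb, Cd8b1, Cd8a, Ifng and Xcl1 were under 1%, 22 genes were under 5%, and 24 of the 76 were at 20% or more. Cd4, the coreceptor of helper T cells and not a member of these lists, was found at 11.4 and 43.5 RPKM in keratinocytes and 16.8 and 102 RPKM in T cells. Per length of exon it was thus above Cd8a and Cd8b1 in both keratinocyte libraries and below them in both T-cell libraries. Foxp3, the factor of regulatory T cells, had 0.541 and 2.36 RPKM in keratinocytes and 0.940 and 6.60 RPKM in T cells, and Cd40lg had 1.05 and 3.99 RPKM and 2.05 and 12.4 RPKM. Both were higher in replicate 2 of each group. Of the 4 genes listed for CD4 T cells, Zbtb7b was higher in keratinocytes (25.6% of all genes tested) and 3 were not called. The part of other cells in these levels was not tested.

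Markers of further cell types were present at different levels, and their counts are to be read against 25.6% of all genes tested higher in keratinocytes and 15.3% higher in T cells. Of 9 B-cell genes, Ighm and Ighd have an exon length of 0 and add nothing to the sum. The others summed to 0.845 and 3.01 RPKM in keratinocytes and 30.9 and 34.1 RPKM in T cells. Of the 7 tested, 6 were higher in T cells, among them Cd79a with 10.4 and 8.81 RPKM. Reads within Ighm numbered 341 and 1245 in keratinocytes and 3521 and 3941 in T cells. Scaled to mapped reads, the keratinocyte level was 18.9% of the T-cell level for Ighm and 1.60% for Ighd. These shares were not tested. Of 7 genes tested of the dendritic cell list, 5 were higher in T cells, all of them of antigen presentation on MHC class II, which B cells carry too, and 2 were without T-cell replicate 2. Cd74, one of them, was measured at 5.604 and 19.4 RPKM in keratinocytes and 119 and 177 RPKM in T cells (-3.47 ± 0.67, edgeR adjusted p = 0.0103). Cd207, the Langerhans cell marker, had no read in all 4 libraries. Globin genes and Alas2 summed to 76.6 and 284 RPKM in keratinocytes and 516 and 1441 RPKM in T cells, and replicate 2 was the higher in each group. Of these 5 genes 1 was called, higher in T cells, and from 0 to 5 were with 1 library left out (0 without keratinocyte replicate 1 or T-cell replicate 2). Of 6 melanocyte genes tested all were higher in keratinocytes at low levels, or 3 without keratinocyte replicate 1, with 6.22 and 1.70 RPKM of Tyrp1 and 6.12 and 1.84 RPKM of Dct. The 7 fibroblast genes summed to 1.16 and 1.57 RPKM in keratinocytes, and the 4 Merkel cell genes had no read in all 4 libraries. Of the 4 smooth muscle genes, both that were tested were higher in keratinocytes. Acta2, smooth muscle actin, stood at 140.1 and 126 RPKM and Tagln at 4.80 and 11.7 RPKM in keratinocytes, where Des and Myh11 were under 0.26 RPKM, and Tagln was not called without keratinocyte replicate 2. Genes of macrophages and neutrophils summed to 101 and 231 RPKM in keratinocytes and 22.4 and 84.3 RPKM in T cells, and 4 of 9 tested were higher in keratinocytes, or 2 without keratinocyte replicate 2. The other 5 tested were not called, and the median log2 fold change of the 9 was -0.91. In 2 of the 9 both T-cell libraries lay above both keratinocyte libraries. S100a8, listed for neutrophils but also made by stressed keratinocytes, had 27.9 and 110.1 RPKM in keratinocytes and 0.979 and 5.14 RPKM in T cells (4.59 ± 1.04, edgeR adjusted p = 0.0169). Csf3r of neutrophils had at most 12 reads in a library. Summed levels were low for mast cell genes, at most 0.634 RPKM in a library, and for endothelial genes, at most 3.35 RPKM. Genes of gamma delta T cells summed to 7.10 and 9.04 RPKM in keratinocytes and 4.91 and 17.2 RPKM in T cells. Of 3 members tested 1 was higher in keratinocytes, and 0 were in the fit of all 10 libraries. Trdc, Tcrg-C1, Tcrg-C2 and Tcrg-C4 of that list have an exon length of 0 and add nothing to these sums. Reads within Trdc numbered 3 and 8 in keratinocytes and 49 and 22 in T cells. For Tcrg-C1 these were 10 and 56 and 18 and 91, for Tcrg-C2 10 and 66 and 28 and 91, and for Tcrg-C4 1 and 8 and 12 and 11. Genes of NK cells, a list that shares Gzma with the killing genes, summed to 0.281 and 1.31 RPKM in keratinocytes and 6.60 and 23.1 RPKM in T cells. The Y-linked gene Eif2s3y was at 26.2 and 3.58 RPKM in keratinocytes and 1.49 and 42.3 RPKM in T cells, so that it differed within each group. Whether these other cells had a part in the results was not tested.

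Many cell functions are served by related genes of which leukocytes and epithelial cells use different members. In 32 such pairs, 21 leukocyte members were higher in T cells and 19 epithelial members were higher in keratinocytes (15.3% and 25.6% of all genes tested), both together in 13 pairs, and in 5 pairs neither was called. No pair was called in the reverse direction in the main fit. In 25 epithelial members both keratinocyte libraries lay above both T-cell libraries, and in 3 the reverse held. Prkca, listed as epithelial, had means of 3.94 RPKM in keratinocytes and 13.2 RPKM in T cells (-1.65, edgeR adjusted p = 0.0769). It was called higher in T cells by DESeq2 (adjusted p = 0.0280) and without a filter on low counts. The bundling proteins of actin, Lcp1 and Pls3, gave 9.81 and 38.5 RPKM of Lcp1 in keratinocytes and 295 and 197 RPKM in T cells (-3.25 ± 0.73), against 389 and 334 RPKM of Pls3 in keratinocytes and 0.518 and 0.567 RPKM in T cells (9.45 ± 0.49). The adhesion adaptors Parvg and Parva divided in the same way, with 49.2 and 37.6 RPKM of Parvg in T cells (-3.17 ± 0.62) and 24.2 and 18.8 RPKM of Parva in keratinocytes, at least 1035-fold higher than in T cells. Regulators of the actin network followed, with Hcls1 (-2.46 ± 0.63) and Cttn (8.17 ± 0.50), Nckap1l (-2.69 ± 0.68) and Nckap1 (3.68 ± 0.36), Was (-2.52 ± 0.60) and Wasl (4.30 ± 0.52). The receptor phosphatases Ptprc (-3.38 ± 0.73) and Ptprf (7.88 ± 0.57) and the SRC family kinases Lck (-2.42 ± 0.71) and Yes1 (4.92 ± 0.51) were separated as well.

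**Figure D5:**
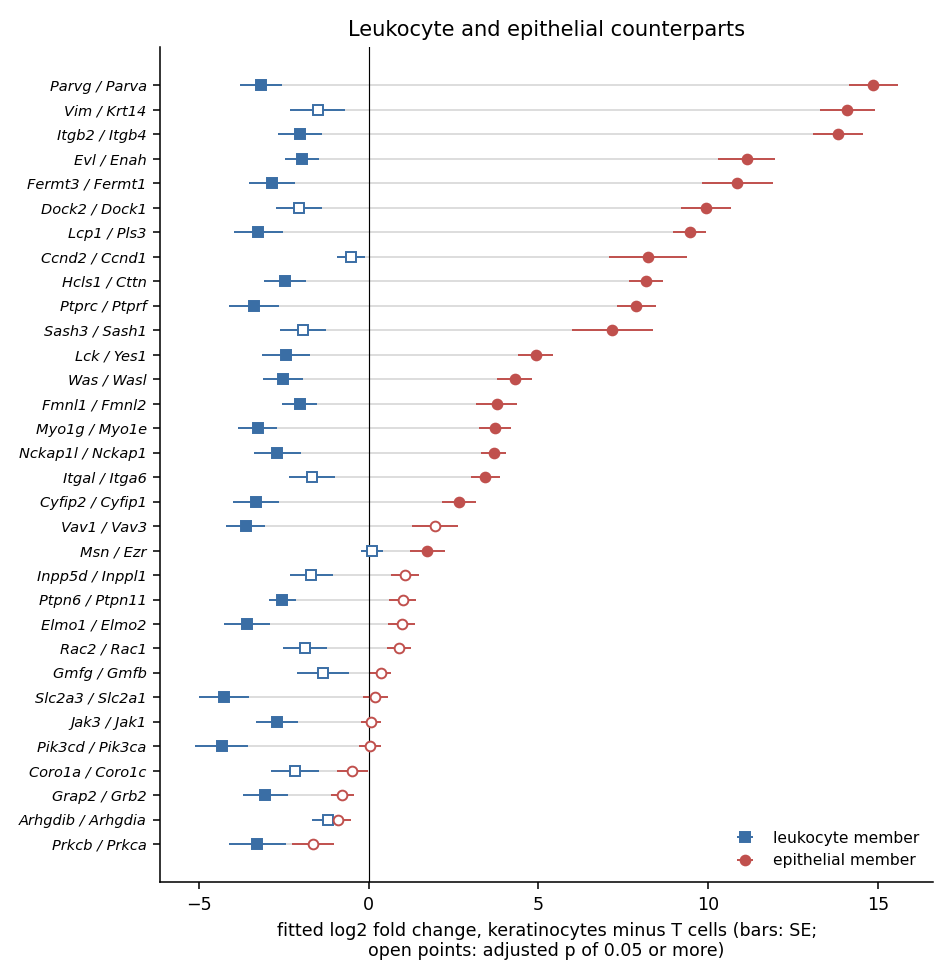
Fitted log2 fold change, keratinocytes minus T cells, with its SE for the leukocyte member (blue squares) and the epithelial member (red circles) of 32 pairs of related genes, with open points for genes not called. Parva and Fermt1 had no read in T cells, so their fitted values are no bounds. The leukocyte member was called in 21 pairs and the epithelial member in 19.

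In 8 pairs only the leukocyte member was called. Slc2a3, a glucose transporter of high affinity, was measured at 0.681 and 2.80 RPKM in keratinocytes and 30.8 and 40.6 RPKM in T cells (-4.26 ± 0.73, edgeR adjusted p = 0.00697), whereas the widely used Slc2a1 had 59.4 and 89.5 RPKM and 70.4 and 67.2 RPKM (0.20 ± 0.36, edgeR adjusted p = 0.678). Likewise Jak3, the kinase of the common gamma chain, was higher in T cells (-2.70 ± 0.62, edgeR adjusted p = 0.0175) beside Jak1 at 41.6 and 36.8 RPKM and 41.7 and 37.3 RPKM, and Pik3cd (-4.32 ± 0.78) beside Pik3ca (0.04 ± 0.32). In 6 pairs only the epithelial member was called. The D-type cyclins belong here: Ccnd1 was found at 101 and 44.8 RPKM in keratinocytes and 0.0318 and 0.483 RPKM in T cells (8.23 ± 1.15, edgeR adjusted p = 0.00335), but Ccnd2, known for its role in lymphocytes, was not called, with 92.3 and 49.6 RPKM and 125 and 88.3 RPKM. For the GTPases Rac2 and Rac1 neither was called, with 16.7 and 58.99 RPKM of Rac2 in keratinocytes and 119 and 179.6 RPKM in T cells, but Rac2 was called without keratinocyte replicate 2 (-3.08) or T-cell replicate 1 (-2.16). Of the leukocyte members, 30 of 32 were higher in keratinocyte replicate 2 than in replicate 1, with a median ratio of 3.53.

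Ligands and receptors by which the cell types could address each other were listed in 38 pairs, 22 with a ligand of keratinocytes and 16 with a ligand of T cells. Of 19 keratinocyte ligands tested, 9 were higher in keratinocytes (25.6% of all genes tested): Il33, Tslp, Cdh1, Cxcl16, Il18, Il1a, Jag1, Cxcl1 and Il7. Higher in T cells (15.3% of all genes tested) were Cd274 (-2.50 ± 0.54), the inhibitory ligand PD-L1, not called without keratinocyte replicate 1, and Il6, which had no read in keratinocytes and lost its call when any library was left out. Tslp, a cytokine of barrier epithelia, stood at 80.4 and 224 RPKM, at least 827-fold higher than in T cells. Cxcl16, the ligand of Cxcr6, was found at 54.4 and 47.8 RPKM in keratinocytes and 0.727 and 1.47 RPKM in T cells (5.62 ± 0.49, edgeR adjusted p = 0.000793). The receptors named for them were rarely called, and no pair had both its ligand higher in keratinocytes and its receptor higher in T cells, though 2 pairs did without keratinocyte replicate 2 and 2 without T-cell replicate 1. Cxcr6 was measured at 5.89 and 25.3 RPKM in keratinocytes and 16.4 and 72.4 RPKM in T cells, with 5.202% of its reads mapped uniquely, and was called without keratinocyte replicate 2 (-2.86) or T-cell replicate 1 (-2.12). Crlf2, a receptor chain for Tslp, stood at 10.01 and 20.3 RPKM and 16.04 and 27.4 RPKM. Il1rl1, the receptor of Il33, was low in both groups with 0.329 and 0.911 RPKM and 0.682 and 3.08 RPKM, and was called higher in T cells without T-cell replicate 1 (-2.23). Cxcr2 and Notch1, listed as receptors, were higher in keratinocytes, Notch1 with 22.5 and 32.2 RPKM against 6.88 and 4.92 RPKM (2.30 ± 0.38, edgeR adjusted p = 0.00605). Cxcl10, a chemokine induced by interferons, was not called, with 0.451 and 2.24 RPKM in keratinocytes and 5.597 and 8.63 RPKM in T cells, with 15.9% of its reads mapped uniquely, and without keratinocyte replicate 2 it was called (-3.89), as it was in 7 other alternatives.

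In the opposite direction, 5 of the 16 pairs had a ligand higher in T cells and a receptor higher in keratinocytes: Ifng and Ifngr2, Lta and Tnfrsf1a, Il22 and Il22ra1, Osm and Osmr, and Tgfb1 and Tgfbr2. Without either keratinocyte library 3 pairs were. Of the chains of the receptor for interferon gamma, Ifngr2 was higher in keratinocytes with 10.7 and 9.31 RPKM against 3.75 and 5.03 RPKM (1.26 ± 0.37, edgeR adjusted p = 0.0369), and Ifngr1 was not called with 24.9 and 41.5 RPKM and 22.1 and 68.7 RPKM. The call of Ifngr2 was lost without either keratinocyte library or T-cell replicate 1, with log2 fold changes of 1.20, 1.36 and 1.06. Tnfrsf1a, the TNF receptor of most tissue cells, was found at 48.5 and 60.8 RPKM in keratinocytes and 5.45 and 6.17 RPKM in T cells (3.31 ± 0.35, edgeR adjusted p = 0.00134). Il22ra1 and Osmr, at 3.51 and 2.56 and 2.43 and 3.33 RPKM in keratinocytes, were at least 37.4-fold and 75.8-fold higher than in T cells. Their ligands were low in T cells, with 0.857 and 1.88 RPKM of Il22, which had no read in keratinocytes, and 7.07 and 10.8 RPKM of Osm. The call of Il22 was lost without either keratinocyte library or T-cell replicate 2. Cd40, listed as a receptor of keratinocytes, had no read there and 1.51 and 2.20 RPKM in T cells. Il4ra was higher in T cells as well (-1.28 ± 0.39, edgeR adjusted p = 0.0410), but not without either keratinocyte library or T-cell replicate 1. Fas had 1.29 and 3.36 RPKM in keratinocytes and 6.67 and 9.44 RPKM in T cells (edgeR adjusted p = 0.0749), and was called without keratinocyte replicate 2 (-2.56).

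Genes of growth and metabolism, which both cell types need, differed by program. Of 19 genes of DNA replication and mitosis, 10 were higher in T cells and 1 in keratinocytes, where 15.3% and 25.6% of all genes tested were. The replicative helicase genes Mcm2 to Mcm7 were all higher in T cells, with log2 fold changes from -4.02 (Mcm3) to -2.91 (Mcm4). Pcna, the sliding clamp of DNA polymerases, was found at 52.2 and 60.004 RPKM in keratinocytes and 629.9 and 489 RPKM in T cells (-3.23 ± 0.37, edgeR adjusted p = 0.00175), with 43.2% of its reads mapped uniquely. Several mitotic genes were not called. Mki67 had 12.6 and 9.50 RPKM in keratinocytes and 11.3 and 2.05 RPKM in T cells, Plk1 had 21.0 and 13.7 RPKM and 24.4 and 6.03 RPKM. Ccnb2, a mitotic cyclin, was higher in keratinocytes with 53.7 and 51.9 RPKM against 7.07 and 3.31 RPKM (3.43 ± 0.46, edgeR adjusted p = 0.00306), while Ccnb1 with 32.7 and 30.2 RPKM and 32.0 and 10.5 RPKM was not called. In each of the 19 genes T-cell replicate 1 was above replicate 2, and without T-cell replicate 1 Mki67, Plk1 and Ccnb1 were also higher in keratinocytes, so that 4 genes were.

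Ribosome biogenesis was the shared program with the highest share of calls, 12 of 14 genes higher in T cells (15.3% of all genes tested) and a median log2 fold change of -2.46. Ncl, nucleolin, was measured at 41.4 and 26.7 RPKM in keratinocytes and 365 and 132 RPKM in T cells (-2.78 ± 0.59, edgeR adjusted p = 0.0140), and Npm1, nucleophosmin, at 261 and 437 RPKM and 2213 and 1760.3 RPKM (-2.42 ± 0.47, edgeR adjusted p = 0.0105). Myc, a regulator of this program, was not called, with 86.4 and 105 RPKM in keratinocytes and 145 and 69.1 RPKM in T cells (edgeR adjusted p = 0.913). Replicate 1 of the T cells was above replicate 2 in all 14 genes.

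Of 16 genes of glycolysis, 6 were higher in T cells (15.3% of all genes tested) and 10 were not called. Called were the glucose transporter Slc2a3, the hexokinase Hk2 (-1.88 ± 0.32), the phosphofructokinase Pfkp (-2.32 ± 0.36), Ldha (-1.77 ± 0.41) and the lactate carriers Slc16a1 (-3.35 ± 0.40) and Slc16a3 (-1.94 ± 0.35). The call of Ldha was lost when either keratinocyte library was left out (-1.68 and -1.83). Enzymes such as Pgk1, with 505 and 737 RPKM in keratinocytes and 962 and 1263 RPKM in T cells, were not called. Cholesterol synthesis ran opposite, with 13 of 17 genes higher in keratinocytes (25.6% of all genes tested), none higher in T cells and a median log2 fold change of 1.58. Fdft1, squalene synthase, was found at 85.4 and 92.4 RPKM in keratinocytes and 28.9 and 33.8 RPKM in T cells (1.58 ± 0.32, edgeR adjusted p = 0.0123), and Sqle, squalene epoxidase, at 106 and 95.4 RPKM and 43.9 and 23.3 RPKM (1.66 ± 0.40, edgeR adjusted p = 0.0202). Without keratinocyte replicate 1, 7 of the 17 were called. The serum-free media of the groups differed, and medium and cell type cannot be told apart.

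The genes used most often as references differed in part. Of 10 tested, Hprt (-1.72 ± 0.41) and Tbp (-1.40 ± 0.41) were higher in T cells, and without keratinocyte replicate 1 neither was called. The call of Tbp was also lost without T-cell replicate 1 or keratinocyte replicate 2. Not called were, among others, Actb (-1.15 ± 0.42) and Sdha (-0.29 ± 0.31). Among 186 genes at 200 RPKM or more in both groups, 15 were called, where 40.9% of all genes tested were called in either direction. These genes were selected for a high level in both groups, which by itself limits large differences. The 5 with the smallest difference were Calr, mt-Nd5, Sh3bgrl3, mt-Nd4l and Bsg. Bsg, a chaperone of lactate carriers, had 283 and 294 RPKM in keratinocytes and 283 and 308 RPKM in T cells.

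The most abundant transcripts were divided by cell type in part. The 10 highest in keratinocytes were Krt14, Hspb1, Krt6a, mt-Atp6, mt-Co1, S100a11, Eef1a1, mt-Co2, Krt17 and Anxa1, of which 6 were higher in keratinocytes in the test. Hspb1, a small heat shock protein of epidermis, stood at 4742 and 7096 RPKM in keratinocytes and 0.346 and 1.89 RPKM in T cells, with 52.2% of its reads mapped uniquely. The 10 highest in T cells were mitochondrial transcripts (mt-Co3, mt-Atp6, mt-Co2, mt-Nd1, mt-Co1, mt-Nd3 and mt-Atp8), Eef1a1, Rplp1 and Rps12-ps3, a ribosomal pseudogene without uniquely mapped reads. Of these 10 only mt-Nd3 was called (-2.41 ± 0.70, edgeR adjusted p = 0.0367), and not without keratinocyte replicate 1 or T-cell replicate 2. No transcript of T-cell identity was among them, and Gzmb, at 2966 and 1968 RPKM, was the most abundant of the T-cell lists.

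Replicates were separate libraries, with a mean chi-square per degree of freedom of 103 in keratinocytes and 126 in T cells. In keratinocytes the genes with the widest ratio between replicates were Lgals7, Prl2c3, Krt18, Krtdap and H2-Q7. Prl2c3, a proliferin, had 99.9 and 15.1 RPKM, with 31.0% of its reads mapped uniquely, and had no read in T cells. In T cells these genes were Gm21738, Gm10800, Cd4, S100a4 and Hcst, and in all 5 replicate 2 was the higher, as in the keratinocyte libraries. S100a4, a calcium-binding protein of memory T cells and other motile cells, had 75.1 and 253 RPKM in keratinocytes and 80.5 and 481 RPKM in T cells. The first 2 of these genes have near-identical copies and are uncertain, with 18.6% and 38.9% of their reads mapped uniquely.

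The same contrast was made between keratinocytes and T cells separated after co-culture, 2 libraries each that were not used above. There 1381 of 12432 genes were higher in keratinocytes (11.1%) and 350 were higher in T cells (2.82%), the latter 739 without a filter on low counts. Of the 3007 genes higher in keratinocytes alone that were tested there, 2782 had the same sign, 1221 were called in the same direction and 14 in the opposite one. Of 1870 genes higher in activated T cells, 1431 had the same sign, 157 were called in the same direction and 15 in the opposite one. Krt14 stood at 7926 and 11836 RPKM in co-cultured keratinocytes and 61.6 and 16.8 RPKM in co-cultured T cells (7.91 ± 1.09, edgeR adjusted p = 0.0153). Cd8a had 0.525 and 1.16 RPKM and 312 and 209 RPKM there (-8.36 ± 0.74, edgeR adjusted p = 0.00882). Gzmb was higher in T cells there too (-7.24 ± 0.86, edgeR adjusted p = 0.0119). Ifng was not called, at 1.36 and 5.92 RPKM in co-cultured keratinocytes and 3.26 and 6.20 RPKM in co-cultured T cells (edgeR adjusted p = 0.773). Cd3e, at 19.4 and 88.6 RPKM against 193 and 113 RPKM, was not called there either (edgeR adjusted p = 0.248). The co-cultured T cells had been cultured further after activation and Krt14 reads in co-cultured T cells and Cd3e reads in co-cultured keratinocytes were counted, so the contrasts differ in more than the libraries, and the difference between them was not tested.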

How the data were processed

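Poly(A) RNA of the cells was sequenced as single reads of 59 bases, and the study's authors mapped the reads with CLC Genomics Workbench at default settings; the genome build named in the submitters' processing notes is GRCm38, and the annotation release is not given in the sources used here. The deposited tables give for each gene the exon read count, the uniquely mapped count, the reads within the gene and RPKM, as the authors' software made them. RPKM are written with decimal commas and were converted. Counts come without molecular identifiers, and the floors cover counting error only. The SE of a fold change also reflects the spread between libraries, as estimated in the fit.

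Groups followed the labels. Exon read counts of the 4 libraries were filtered (filterByExpr) and scaled (TMM), and the groups were compared by edgeR's quasi-likelihood test, two-sided, with Benjamini-Hochberg adjustment over all genes tested and a threshold of 0.05 (edgeR 4.0.16, limma 3.58.1, R 4.3.3; tables and plots with Python 3.11.15, pandas 2.3.3, numpy 2.4.6 and matplotlib 3.10.9). SE is the fold change divided by the root of the F statistic. For genes without a read in a group, the fold was set against 3 reads in the shallower library of that group, and the fitted value depends on a prior count. Alternatives were DESeq2 1.42.0, other scalings, filters, uniquely mapped counts, limma on log2(RPKM + 1) and log2(RPKM + 0.1), a replicate block, all 10 libraries in a fit, and each library left out. Same-numbered libraries of the groups deviated from their group means with a correlation of 0.243 across genes, over 2 pairs, and the labels do not tie the numbers to a shared animal.

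Genes were named by rules: the 4 markers, members of 31 lists, of which 6 genes were not analysed here, and of 3 sets of pairs, the 10 genes with the largest fitted difference in each direction among called genes without overlap of the groups and at a mean of 50 RPKM or more in the higher group, the 10 most abundant in each group, the 5 with the smallest difference at 200 RPKM or more in both groups, and the 5 with the largest ratio of replicates at 10 or more reads in each library and a mean of 50 RPKM or more. Members and lists were chosen with earlier results of these data known. Comparisons of motif shares stayed out of the tests. So did the listed constant genes with an exon length of 0 in the tables: Trac, Trbc1, Trbc2, Trdc, Tcrg-C1, Tcrg-C2, Tcrg-C4, Ighm and Ighd. Some genes of the lists are counted but not reported here by name.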

Additional observations from a re-analysis of the deposited data

Results flagged for a closer look

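Trac, Trbc1 and Trbc2, constant genes of the T-cell receptor chains, have an exon length of 0 in the deposited tables, no exon reads and no RPKM, so they took no part in the comparisons, but reads within the gene were counted. These reads were scaled by the mapped reads of each library to RPM. Trac, the constant gene of the alpha chain, gave 557 and 1920 reads in keratinocytes and 4830 and 5266 reads in T cells, with means of 71.0 and 326 RPM. For Trbc1, a constant gene of the beta chain, the keratinocyte libraries held 872 and 2655 reads and the T-cell libraries 7064 and 8691 reads (101 and 512 RPM). Trbc2 was counted 485 and 1794 times in keratinocytes and 4494 and 5286 times in T cells (65.5 and 317 RPM). Each was looked at again because a signal of T cells stood in keratinocyte libraries, far above the 3 reads that counting error allows around 0, in data outside the main measurement. The keratinocyte level was 21.8% of the T-cell level for Trac, 19.7% for Trbc1 and 20.6% for Trbc2, and for each gene replicate 2 of the keratinocytes was above replicate 1. These shares were not tested.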

How the results depend on the processing

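Of 441 named genes with a fold change under the alternatives, 319 kept direction and side of the threshold under all of them, 59 lost a call and 63 gained one under at least 1, and none reversed. Of 295 that were called, 236 stayed called throughout. For the lists of keratinocytes, T cells, shared programs and the counterparts, counts not named here stayed within 1.5 times the reported value. Counts of markers of other cells and of pairs moved under further settings. With the block both members of 20 counterpart pairs and 2 pairs of a keratinocyte ligand and its receptor were called. With 10 reads required in every library, which by construction removes genes without reads in a group, 1897 genes were higher in keratinocytes, as were 25 members of the keratinocyte lists together (keratins 1, desmosome 4, hemidesmosome and laminin 5, adherens and tight junction 6, cornified envelope 2, transcription factors 3, growth factor genes 4). There, 3 genes of the T-cell receptor complex and 7 cytokine and killing genes were higher in T cells. Without a filter these were 10 genes of the receptor complex, and 739 genes were higher in co-cultured T cells. With the replicate block, 10 genes of the receptor complex and 4 reference genes were higher in T cells. The block gave 3395 and 2363 genes higher in keratinocytes and T cells, and since the numbers are not shown to pair the libraries, nothing rests on it. No block was fitted to the co-cultured libraries, whose labels give the T cells no replicate number. DESeq2 called 4 reference genes higher in T cells, and the fit of all 10 libraries called 0 reference genes higher in keratinocytes. For the remaining settings the cause was not tested.

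With 1 library left out, the lone library of the group is assumed to vary like the others. The number of genes higher in T cells then ranged from 905 to 1859, that of the receptor complex from 5 to 10, of DNA replication genes higher in keratinocytes from 1 to 4, of cholesterol genes from 7 to 13, and of reference genes from 0 to 1 in keratinocytes and from 0 to 2 in T cells. With 2 libraries a group, differences near the spread of replicates were not detectable for many genes at this depth.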
